A study of Mus musculus with 4 samples.

Results

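The genes described here build the route by which newly made proteins enter the endoplasmic reticulum (ER) and move between the ER and the Golgi apparatus. They were taken by name: protein-coding genes whose symbols start with Sec11, Sec13, Sec16, Sec22, Sec23, Sec24, Sec31, Sec61, Sec62 or Sec63, the Tmed genes, the coatomer genes Copa, Copb, Copg, Copz, Cope and Arcn1, and the Ssr and Spcs genes. The rule gave 50 of 21900 protein-coding genes, and it used no measured value. Their RNA was examined in CLIP-seq data for the RNA-binding protein MSI2 in mouse intestinal epithelial cells. CLIP-seq joins RNA to protein with ultraviolet light, precipitates the protein with an antibody and sequences the RNA fragments that come with it. The study has 2 wild-type (WT) samples and 2 TRE-Msi2 samples, all on the C57BL6 background. The TRE-Msi2 mice carry a doxycycline-inducible Msi2 transgene. By the labels' protocols they had received doxycycline for 24 hours and gave total epithelium, while the WT material was crypts and no doxycycline is recorded for it. Genotype, doxycycline and tissue fraction therefore cannot be told apart, and what drives the inducible transgene is not given in the sources used here.

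Secreted and membrane proteins enter the ER through the Sec61 channel, helped by Sec62, Sec63 and the translocon-associated protein (TRAP) complex encoded by the Ssr genes. Signal peptidase, made of Sec11 and Spcs subunits, then cuts off the signal peptide. COPII-coated vesicles carry cargo from the ER towards the Golgi, COPI-coated vesicles (coatomer) carry it back and within the Golgi, and Tmed proteins act as cargo receptors for both. Intestinal epithelium depends on this route for mucus, antimicrobial peptides, chylomicrons and brush-border enzymes.

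The authors deposited 1 peak list per genotype, each pooling both samples, so the spread between replicates is unknown and the genotypes could not be compared by a test. The WT list held 12061 peaks and the TRE-Msi2 list 16939. Each peak has the authors' own score, which behaves as the number of reads in a 200-nt bin and, for wider peaks, as a mean over joined bins. The reading is not exact, since 0.879% of single-bin scores in WT and 3.30% in TRE-Msi2 were not whole numbers, among them some of Sec23ip and Tmed5. Single-bin peaks started at a score of 15 (WT) or 20 (TRE-Msi2), and the medians over all peaks were 19.0 and 24.7, respectively. Sequencing depth is unknown, so scores are read within a list. Enterocyte, Paneth and goblet markers all held peaks in both lists (5 of 5, 2 of 2 and 2 of 2), Cd74 was the sole immune marker of 3 with a peak, and 0 of 5 stromal markers held one. RNA abundance was not measured, so a peak can reflect how much of a transcript was present as well as MSI2 binding. Positions are on mm10.

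Most of the translocation and coat vesicle genes held a peak. In the WT list 32 of 50 did, or 64.0% (exact 95% binomial interval 49.2% to 77.1%), where 20.3% of all protein-coding genes held one. In the TRE-Msi2 list 37 of 50 did, or 74.0% (59.7% to 85.4%), against 24.9% of all protein-coding genes. All 32 with a WT peak also held a TRE-Msi2 peak, so 64.0% held both, against 19.1% of all genes. The 5 found in the TRE-Msi2 list alone were Sec63, Ssr4, Sec11a, Spcs1 and Copg1; that is 10.0% of the genes (3.33% to 21.8%), and the background was 5.76%. A WT peak without a TRE-Msi2 peak occurred in 0 of 50 (upper bound 7.11%), against a background of 1.2%. Intervals here and below cover counting error only, and subunits of a shared complex may be expressed together. Among protein-coding genes with spans within the members' range, 21.5% held a WT and 26.6% a TRE-Msi2 peak.

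**Figure D1:**
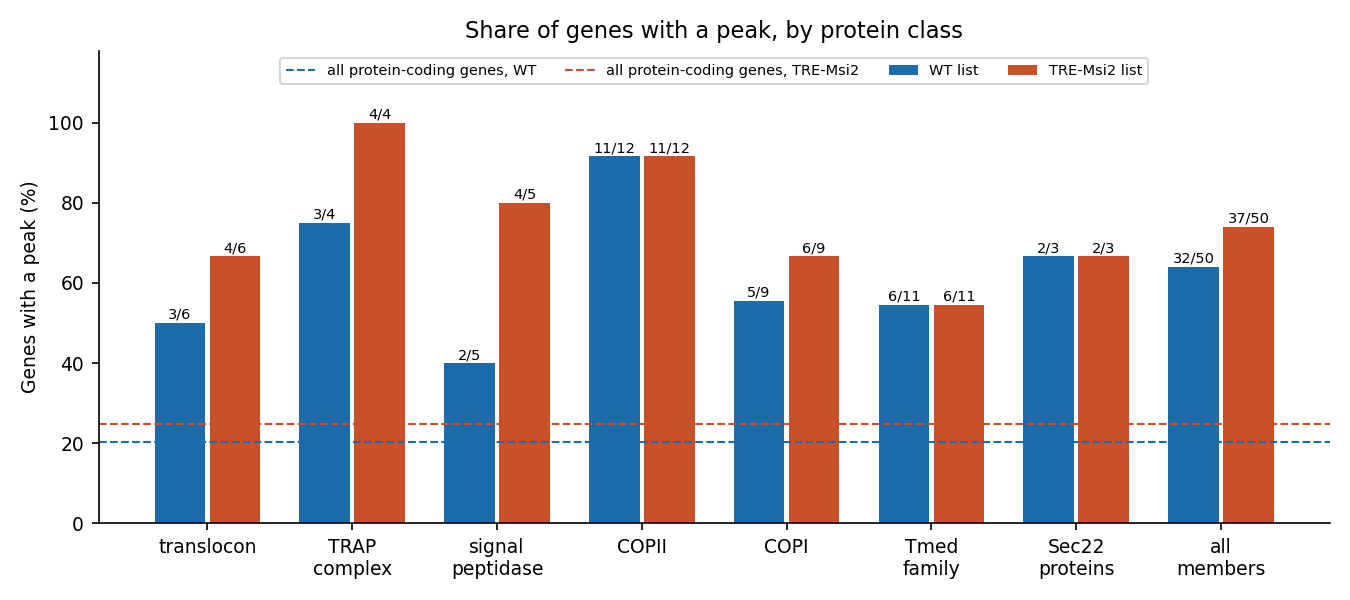
Bars give the share of genes with a peak, in percent, in each protein class and over all 50 genes, in the WT list (blue) and the TRE-Msi2 list (orange), with the count above each bar. Dashed lines mark all protein-coding genes (20.3% and 24.9%); every class lies above them, and COPII has 11 of 12 in both lists.

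Other genes of the secretory route showed a like share. A list of 65 genes for signal recognition, glycosylation, folding, vesicle tethering and fusion, none of them among the 50, held 42 with a WT peak (64.6%, 51.8% to 76.1%) and 48 with a TRE-Msi2 peak (73.8%, 61.5% to 84.0%). The highest WT scores there were in Tfg (57), which organises ER exit sites, the disulfide isomerase gene Pdia3 (53), Pdcd6 (50), P4hb (47.4) and the chaperone gene Hspa5 (47.2). In the TRE-Msi2 list they were in Pdia3 (91), Hspa5 (76.8), Tfg (57), the GTPase gene Rab1a (56) and P4hb (55). Among the TRE-Msi2 peaks, those of a single bin were 72.0% (61.8% to 80.9%) in the 50 genes, 55.2% (46.7% to 63.6%) in the 65, and 63.4% over all protein-coding genes. In the WT list the same shares were 65.6%, 52.9% and 65.5%, so there the 50 genes matched all protein-coding genes.

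Among the channel genes, Sec61a1, which encodes the pore-forming subunit and lies on chromosome 6, carried the strongest signal. It held 3 WT peaks with scores of 49, 32 and 28, and the 49, at positions 88504207 to 88504606, was the highest WT score of any of the 50 genes. In the TRE-Msi2 list Sec61a1 held 4 peaks, with scores of 27, 36.8, 50 and 47 by position. The 50, over 88504807 to 88505006, has a Poisson interval of 37.1 to 65.9. The strong peaks of this gene thus lay at 2 places, near its end and again about 11.8 kb before the end. Sec61b, a small subunit of the channel, held a single peak at its end in each list, with scores of 23 in WT and 29.5 in TRE-Msi2. Sec62, which assists the entry of some precursors, held the same 2 bins in both lists, at 27 and 23 in WT and 32 and 32 in TRE-Msi2. Sec63, the partner that recruits the chaperone BiP, held TRE-Msi2 bins of 22 and 25 and nothing in WT. They lay 21.6 kb and 17.4 kb before the gene's end. The paralog Sec61a2 and the small subunit Sec61g held no peak.

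In the TRAP complex, which binds the channel and helps certain signal sequences, all 4 genes held a TRE-Msi2 peak and 3 held a WT peak. Ssr1, the alpha subunit on chromosome 13, held 6 peaks in each list. Its highest score was in the same bin both times, 37991932 to 37992131, with 28 (18.6 to 40.5) in WT and 43 (31.1 to 57.9) in TRE-Msi2, which is 20.6 kb before the gene's end and near its start. Another cluster of WT peaks, at 20.5, 20.5 and 21, matched a joined TRE-Msi2 peak 1600 nt wide. Some peaks of Ssr1 are not from its own strand: 1 WT (18) and 2 TRE-Msi2 peaks (22 and 20) lay on the opposite one. The WT peak at 18 and the TRE-Msi2 peak at 22 also touch the long noncoding RNA gene Gm52041, which runs in the direction of those reads. Ssr3, the gamma subunit, held 3 WT peaks (27.3, 29 and 17) and 4 TRE-Msi2 peaks (29.5, 29.8, 24 and 36). Its highest WT score lay 2.02 kb before the gene's end and its highest TRE-Msi2 score 11.7 kb before it, in a bin that scored 17 in WT. The WT 29 is a mean over a peak of 400 nt and the TRE-Msi2 36 comes from a single bin, so they are not like measures. Ssr2, the beta subunit, held 1 peak at its end in each list, at 17 and 25.5. Ssr4, the delta subunit on chromosome X, held 1 TRE-Msi2 peak at its end, at 25 (16.2 to 36.9).

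In signal peptidase, WT had 2 of the 5 genes with a peak and TRE-Msi2 had 4. The 2 genes in the TRE-Msi2 list alone are 40.0% of the class (5.27% to 85.3%), against 5.76% of all protein-coding genes. The class was singled out for having the largest gap between the lists. That rank rests on few genes and needs Sec11a, whose peaks are shared with another gene. The catalytic subunit gene Sec11a held 2 TRE-Msi2 peaks, at 36 (25.2 to 49.8) and 27, and no WT peak. The 36 exceeded 87.7% of all TRE-Msi2 scores and was the highest among the 5 genes with no WT peak. Both Sec11a peaks also touch the long noncoding RNA gene Gm51451, so they cannot be given to Sec11a alone. Spcs1, an accessory subunit in a gene of 1.84 kb, held TRE-Msi2 peaks of 30 and 23 and no WT peak. Spcs2 held 1 peak of 800 nt at the same place in each list, at 22.5 in WT and 22.8 in TRE-Msi2. Spcs3 held 2 WT peaks at 16 each and 5 TRE-Msi2 peaks from 20 to 23. All of these were single bins close to the lowest score its list allowed. Sec11c, the alternative catalytic subunit, held no peak.

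COPII had the largest share of genes with a WT peak of any class, and the same 11 of 12 genes held a peak in each list. In the TRE-Msi2 list the TRAP complex, with 4 of 4, had a larger share. Sec31a, which encodes the outer coat subunit and lies on chromosome 5, held 5 WT peaks with scores of 21.5, 15, 18, 32 and 24, in order of position. Its 6 TRE-Msi2 peaks had scores of 32.5, 30.5, 30, 20, 59 and 39. The highest score was in the same bin in both lists, 100407182 to 100407381, at 32 (21.9 to 45.2) in WT and 59 (44.9 to 76.1) in TRE-Msi2. That bin lies 45.6 kb before the gene's end, and the 59 exceeded 98.6% of all TRE-Msi2 scores. Sec13, the other outer coat subunit, held 1 bin at its end, at 20 (12.2 to 30.9) in WT and 47 (34.5 to 62.5) in TRE-Msi2. Sec23ip, which binds Sec23 at exit sites, had 30.5 in WT, and 48.5 and 27 in TRE-Msi2; the 30.5 and the 48.5 were the same bin.

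The inner coat genes of COPII had mostly modest scores at their ends. Sec23a, a GTPase-activating subunit, held 1 WT peak of 1400 nt at 24.4. Sec23a held 4 TRE-Msi2 peaks, namely 1 of 1600 nt over the WT peak at 23, and bins of 26, 21 and 20 further inside the gene. Its paralog Sec23b held 1 bin, at 23 in WT and 26 in TRE-Msi2. The 4 Sec24 genes encode the subunits that pick up cargo, and each held a peak in both lists. Sec24a held 3 WT peaks (27, 25 and 19.6) and 5 TRE-Msi2 peaks (17, 21, 21.8, 22 and 20). All 5 TRE-Msi2 scores of Sec24a lay below the list median of 24.7, whereas all 3 WT scores lay above the WT median of 19.0. Sec24c held 1 WT peak (19) and 3 TRE-Msi2 peaks (28, 21 and 41), and the 41 was in the bin of the WT peak. Sec24d held 1 peak at its end, at 19.5 in WT and 16.4 in TRE-Msi2. Sec24b was the exception to the overlap of the lists. Its WT peak (17) lay 14.0 kb before the gene's end and its TRE-Msi2 peak (23) lay 0.624 kb before it, so the gene held peaks in both lists with no shared place. The exit-site scaffold gene Sec16a held 1 bin, at 20 in WT and 28 in TRE-Msi2. Sec16b, its shorter relative, held a bin 29.5 kb inside the gene at 27 in WT and 25 in TRE-Msi2, and a second TRE-Msi2 bin at 25 near its end. Sec31b held no peak.

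**Figure D2:**
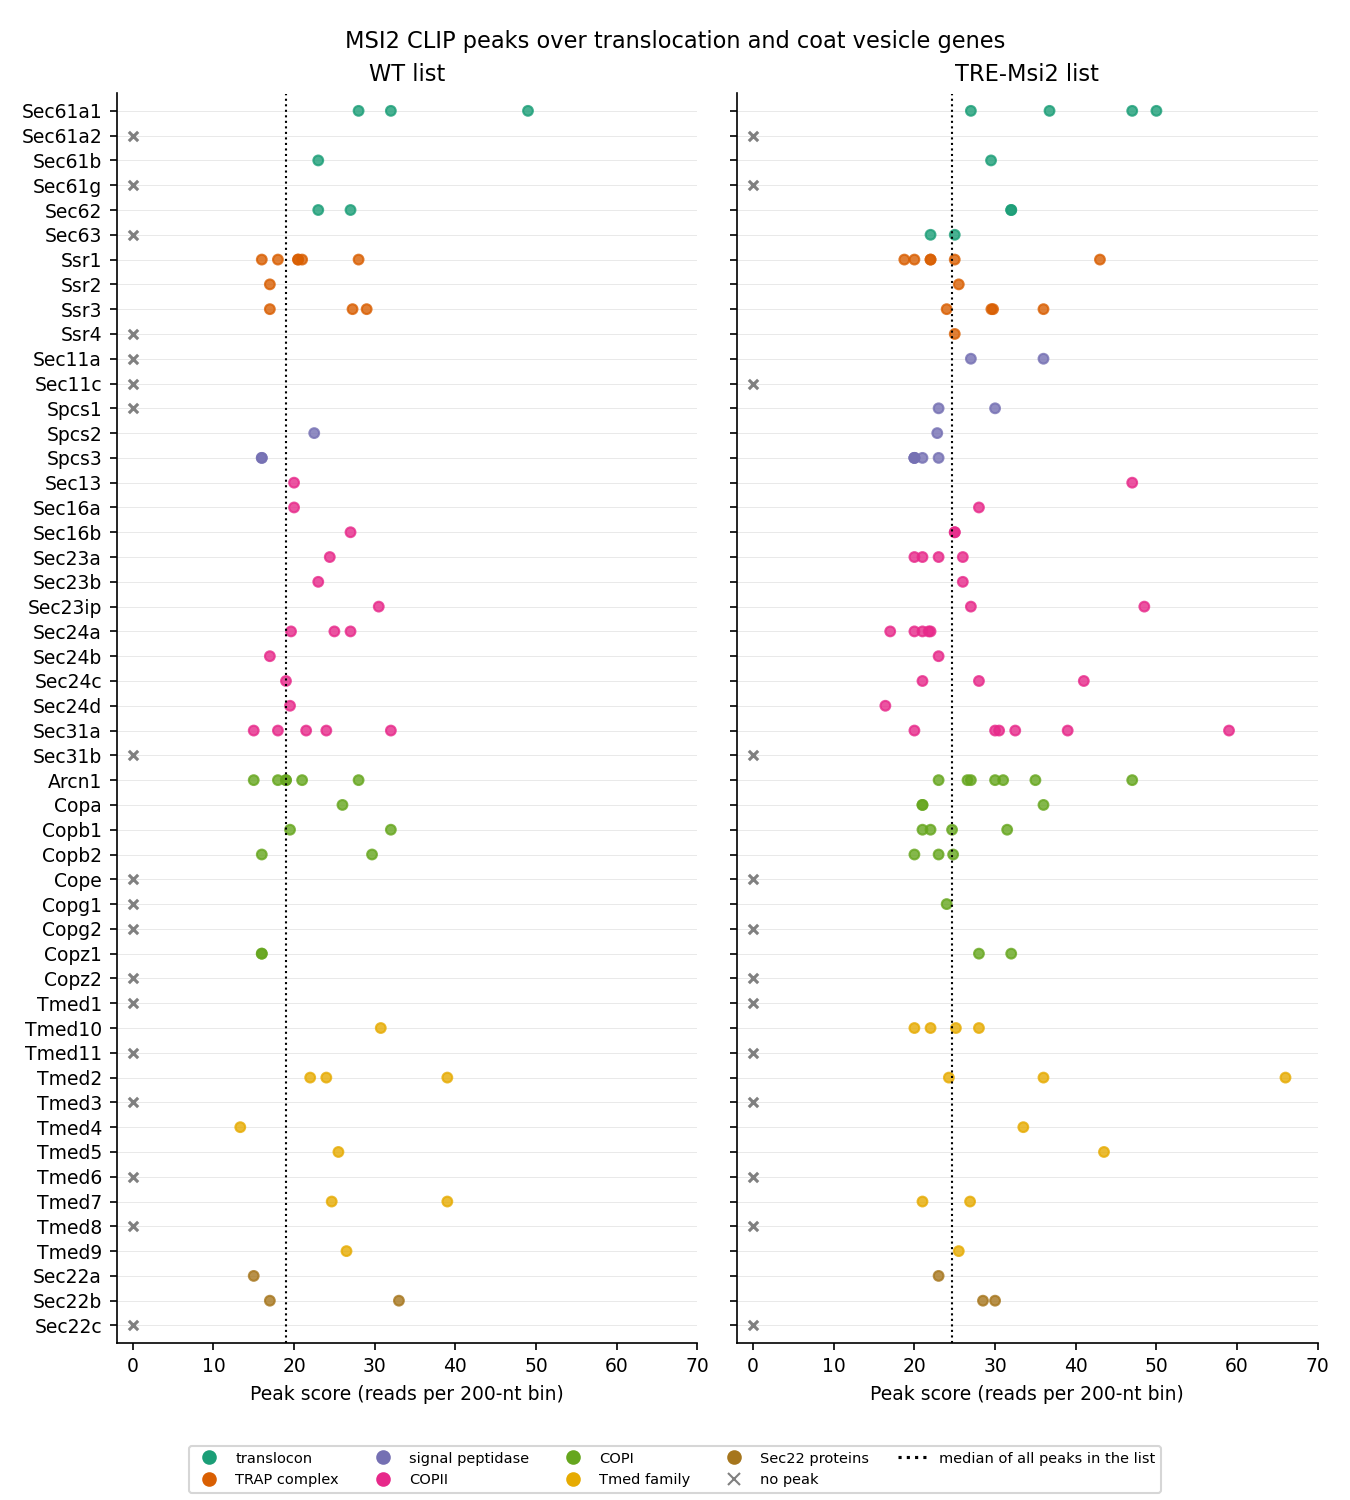
Each point is a peak, placed by its score in reads per 200-nt bin (wider peaks: mean over bins) for each of the 50 genes, with the WT list on the left and the TRE-Msi2 list on the right. Crosses at 0 mark genes without a peak, and dotted lines mark the median of all peaks in the list (19.0 and 24.7); the highest points are Sec61a1 (49) in WT and Tmed2 (66) in TRE-Msi2.

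In the COPI coat, Arcn1, the delta subunit on chromosome 9, held the most peaks of any of the 50 genes, counted in the TRE-Msi2 list. It held 6 WT peaks, with scores of 21, 18, 28, 15, 19 and 19 in order of position, and 7 TRE-Msi2 peaks, with scores of 26.6, 27, 47, 31, 30, 23 and 35. All 6 WT peaks of Arcn1 were overlapped by TRE-Msi2 peaks. The highest score was in the same bin in both lists, 44751118 to 44751317, at 28 (18.6 to 40.5) in WT and 47 (34.5 to 62.5) in TRE-Msi2, 9.07 kb before the gene's end. Copb1, the beta subunit, held WT peaks of 32 and 19.5 and TRE-Msi2 peaks of 24.7, 21, 31.5 and 22. The WT score was highest at the end of Copb1, and the TRE-Msi2 score was highest 21.9 kb before it. The end peak was 200 nt wide in WT and 400 nt in TRE-Msi2, so its scores in the lists are not like measures. Copb2, which encodes the beta-prime subunit, held WT peaks of 16 and 29.7 and TRE-Msi2 peaks of 20, 23 and 24.8. Copa, the alpha subunit, held 1 WT peak (26) and 3 TRE-Msi2 peaks (21, 21 and 36), and the 36 covered the WT peak at the gene's end. Copz1, a zeta subunit, held 2 WT peaks of 16 each and 2 TRE-Msi2 peaks of 28 and 32 at the same places. Copg1, a gamma subunit, held a TRE-Msi2 bin of 24 (15.4 to 35.7) and no WT peak. The paralogs Copg2 and Copz2 held no peak, nor did Cope, the epsilon subunit.

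Among the Tmed genes, the same 6 of 11 held a peak in each list. Tmed2, on chromosome 5, gave the highest TRE-Msi2 score of the 50 genes. Its WT peaks scored 39, 24 and 22 and its TRE-Msi2 peaks 66, 36 and 24.3, and each of the 3 places was shared. The leading bin, 124542992 to 124543191, had 39 (27.7 to 53.3) in WT and 66 (51.0 to 84.0) in TRE-Msi2, above 96.6% and 99.1% of all scores in its list. That bin lies 7.41 kb before the gene's end, in the part of the gene nearer its start. Tmed7, on chromosome 18, held WT peaks of 24.7 and 39, each 1000 nt wide. The TRE-Msi2 list had a peak of 2600 nt over both, at 26.9, which was the widest peak of the 50 genes, and a further bin at 21. Tmed10, whose protein pairs with Tmed2 in transport between the ER and the Golgi, held 1 WT peak of 800 nt at 30.8. Its 4 TRE-Msi2 peaks scored 28, 20, 22 and 25.1, and the 25.1 lay over the WT peak. Tmed9 held 1 peak at its end, at 26.5 in WT and 25.5 in TRE-Msi2. Tmed4 held 1 peak of 400 nt, at 13.3 in WT and 33.5 in TRE-Msi2. The sole peak of Tmed5, at 25.5 in WT and 43.5 in TRE-Msi2, was antisense to the gene, so the RNA of Tmed5 itself had no peak. Tmed1, Tmed3, Tmed6, Tmed8 and Tmed11 held no peak.

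Of the Sec22 genes, Sec22b, a SNARE that drives fusion of vesicles between ER and Golgi, held WT bins of 17 and 33 near its end. The TRE-Msi2 list had a peak of 1000 nt over both bins, at 28.5, and a further bin at 30, which lay 7.74 kb before the end. Sec22a held 1 bin, at 15 in WT and 23 in TRE-Msi2, and Sec22c held none.

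Most of these peaks ran in the direction of their gene. The RefSeq promoter table gives the orientation of 42 of the 50 genes. In these, 42 of 44 peaks in the WT list (95.5%, 84.5% to 99.4%) lay on the gene's own strand. The TRE-Msi2 list had 68 of 71 there (95.8%, 88.1% to 99.1%). Over all protein-coding genes the shares were 82.9% and 85.0%, and in the other secretory genes they were 100% and 99.2%. With peaks on the gene's strand alone, 31 WT and 36 TRE-Msi2 genes remained, against backgrounds of 17.1% and 21.2%; Tmed5 was the gene lost from each. For Arcn1, Sec61a1, Spcs3, Ssr2, Tmed2 and Tmed7 the orientation was taken from the majority of their peaks. That these genes remained with peaks on the gene's strand alone was therefore fixed in advance. The backgrounds for that count also include genes oriented by their own peaks. No peak of the 50 genes touched any of the 46 RefSeq promoter windows of these genes. The same count was not made over all protein-coding genes, so this cannot be read as particular to the 50.

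Several of these genes held 3 or more peaks. Of all 50, 7 did in WT (14.0%, 5.82% to 26.7%), against 3.98% of all protein-coding genes, and 14 did in TRE-Msi2 (28.0%, 16.2% to 42.5%), against 6.42%. The 65 other secretory genes gave 20.0% and 29.2%. Among genes that held a peak at all, the difference between the 50 and all protein-coding genes was smaller. The 32 WT genes held 61 peaks, and 7 of them (21.9%, 9.28% to 40.0%) held 3 or more, against 19.6% of all protein-coding genes with a WT peak. The 37 TRE-Msi2 genes held 93 peaks, and 14 of them (37.8%, 22.5% to 55.2%) held 3 or more, against 25.8%, which is within that interval. The median top score was 26.3 in WT and 29.5 in TRE-Msi2, beside 21.0 and 28.0 over all genes with a peak. Peaks of 1 kb or more made up 7 of the 61 WT peaks (11.5%, 4.74% to 22.2%), against 4.39% over all protein-coding genes and 5.88% in the other secretory genes. The 7 lay in Arcn1, Sec23a, Sec24a, Ssr3, Tmed2 and Tmed7. In TRE-Msi2, 8 of 93 peaks were that wide (8.60%, 3.79% to 16.2%), against 7.38%; these lay in the same 6 genes and in Ssr1 and Sec22b.

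Peaks gathered at the ends of the genes, as they did over all genes. For spans of 10 kb or more, the final 2 kb took 25 of 50 WT peaks on the gene's strand (50.0%, 35.5% to 64.5%), and an even spread along the span would put 7.74% there. For TRE-Msi2 it took 32 of 75 (42.7%, 31.3% to 54.6%), and an even spread would put 7.14% there. The shares over all protein-coding genes were 45.0% and 38.3%, within both intervals. Exons, introns and untranslated regions could not be assigned, so coverage of spliced RNA and a preference of MSI2 for gene ends cannot be told apart. By gene, 20 of 25 WT genes with such spans (80.0%, 59.3% to 93.2%) held a peak in the last 2 kb, against 67.8% of all protein-coding genes with a WT peak on their strand. In TRE-Msi2 it was 25 of 28 (89.3%, 71.8% to 97.7%), against 67.9%. The other secretory genes gave 91.7% in WT and 92.3% in TRE-Msi2. Of the members with such spans, Sec22a and Ssr1 held peaks on their own strand in both lists but none of these in the last 2 kb. Ssr1 held a peak there on the opposite strand in each list.

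Some genes had their highest score away from the end. Among the same genes, every top-scoring peak was centred more than 2 kb before the end in 9 of 25 WT genes (36.0%, 18.0% to 57.5%), against 42.9% of all protein-coding genes. The TRE-Msi2 list gave 10 of 28 (35.7%, 18.6% to 55.9%), against 48.5%, and both backgrounds lie within the members' intervals. Arcn1, Sec22a, Sec31a, Ssr1 and Ssr3 were such genes in both lists, Ssr3 in WT by a small margin (2.02 kb). Top scores were tied between the last 2 kb and the interior in Copz1 in WT and in Sec16b and Sec62 in TRE-Msi2, which are not counted. Tmed2, whose span is under 10 kb, also had its top peak away from the end in both lists. In the WT list the interior peaks of genes of at least 10 kb had a median score of 19.6 and the end peaks 24.4. Over all protein-coding genes these medians were 19 and 19.7. In the TRE-Msi2 list the medians were 25.0 and 27.0, against 24.7 and 24.5 over all protein-coding genes. Among the members' peaks, single bins were 72% of the interior and 56% of the end peaks in WT. In TRE-Msi2 they were 83.7% and 56%. Scores of single bins and means over joined bins are not like measures, so these medians cannot show that end peaks were stronger.

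**Figure D3:**
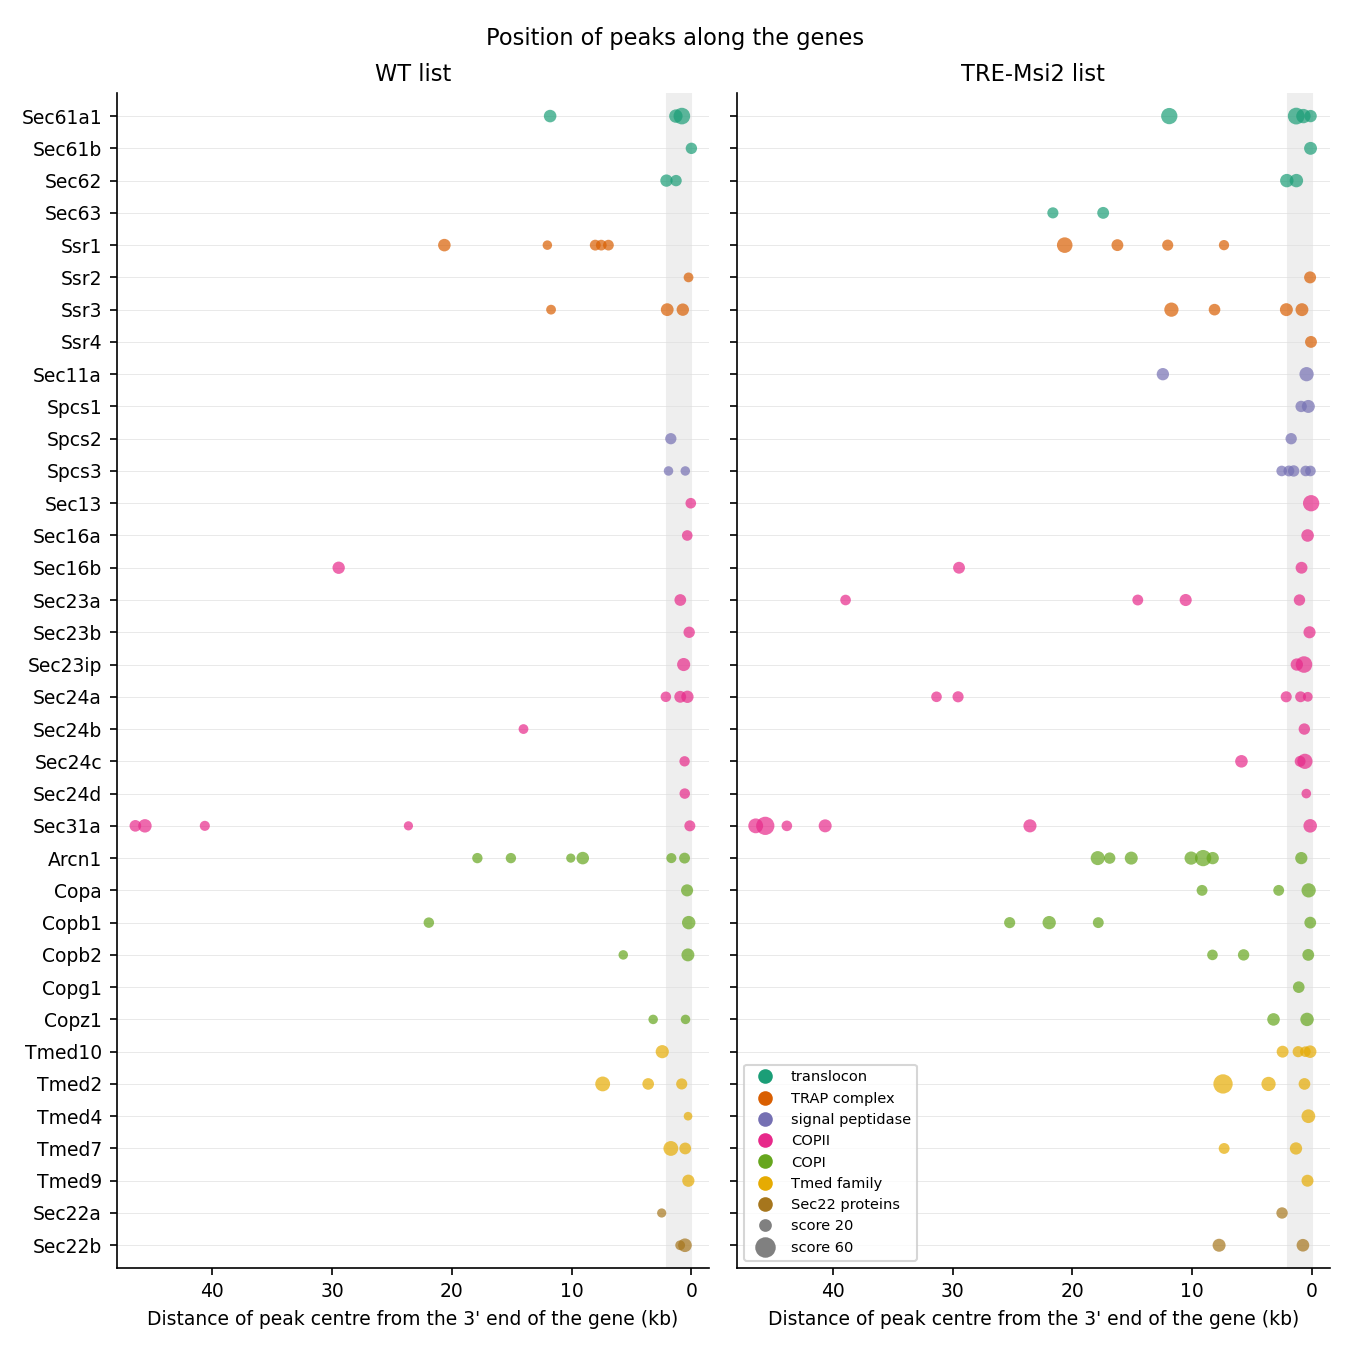
Each point is a peak on the gene's own strand, placed by the distance of its centre from the 3′ end of the gene span in kb, with the WT list on the left and the TRE-Msi2 list on the right; point area grows with the score. The shaded band is the last 2 kb, which among genes of at least 10 kb holds a WT peak in 20 of 25 and a TRE-Msi2 peak in 25 of 28 (67.8% and 67.9% over all protein-coding genes), while the largest points of Tmed2, Sec31a, Arcn1 and Ssr1 lie outside it in both lists.

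Nearly every WT peak in these genes had a counterpart. Of the 61 WT peaks, 60 were overlapped by a TRE-Msi2 peak on the same strand (98.4%, 91.2% to 100.0%), against 91.0% over all protein-coding genes; the exception was the WT peak of Sec24b. In the other direction 55 of 93 TRE-Msi2 peaks were overlapped (59.1%, 48.5% to 69.2%), against 58.7%. Of the 38 TRE-Msi2 peaks with no WT counterpart, 30 lay in 18 genes that held a WT peak elsewhere, and 8 lay in the 5 genes with none. These 38 peaks had a median score of 23, against 29.5 for the 55 that were overlapped. Over all protein-coding genes the split was alike, with medians of 22 and 28. Of the 38, 14 exceeded the list median, a count for which no share over all genes was taken. Of the TRE-Msi2 genes, 32 of 37 also held a WT peak (86.5%, 71.2% to 95.5%), against 76.8% over all protein-coding genes and 42 of 48 in the wider secretory list. The highest peak of a gene lay at the same place in both lists in 23 of 32 genes (71.9%, 53.3% to 86.3%), and in 72.1% of all protein-coding genes with peaks in both. For the genes with at least 2 peaks in each list it was 8 of 14 (57.1%), against 52.1%. The choice of the highest peak sets means over joined bins beside scores of single bins, so peak width can change which peak ranks highest.

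Where a single bin was called at the same place in both lists, the scores went together. There were 29 such bins in these genes, with WT scores from 15 to 39 (median 20) and TRE-Msi2 scores from 20 to 66 (median 32). Across these bins, which share their library pools and in part their genes, Pearson's r was 0.77 and Spearman's rho 0.69; over the 3130 such bins of all protein-coding genes they were 0.76 and 0.60. The TRE-Msi2 score was the larger in 27 of 29 bins and in 96.2% of all such bins. This direction was partly fixed in advance, since single bins start at 15 in the WT list and at 20 in the TRE-Msi2 list. Where the WT score was below 20, the TRE-Msi2 score had to be larger, and a ratio of 1 or less could not occur. The median ratio of TRE-Msi2 to WT score was 1.56 here and 1.52 over all, so a ratio near these values marks nothing about a gene. The ratio was largest in Sec13 (47 over 20, or 2.35), above 98.2% of all such bins, followed by Sec24c (2.16, above 95.7%) and Ssr3 (2.12, above 94.4%). It was below 1 in a bin of Sec24a (21 over 25, or 0.84) and in Sec16b (25 over 27, or 0.93), where 0.6% and 1.7% of all such bins lay lower. These bins were picked as the extremes of the 29, and the depth of either list is unknown. None of these ratios has a replicate behind it.

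**Figure D4:**
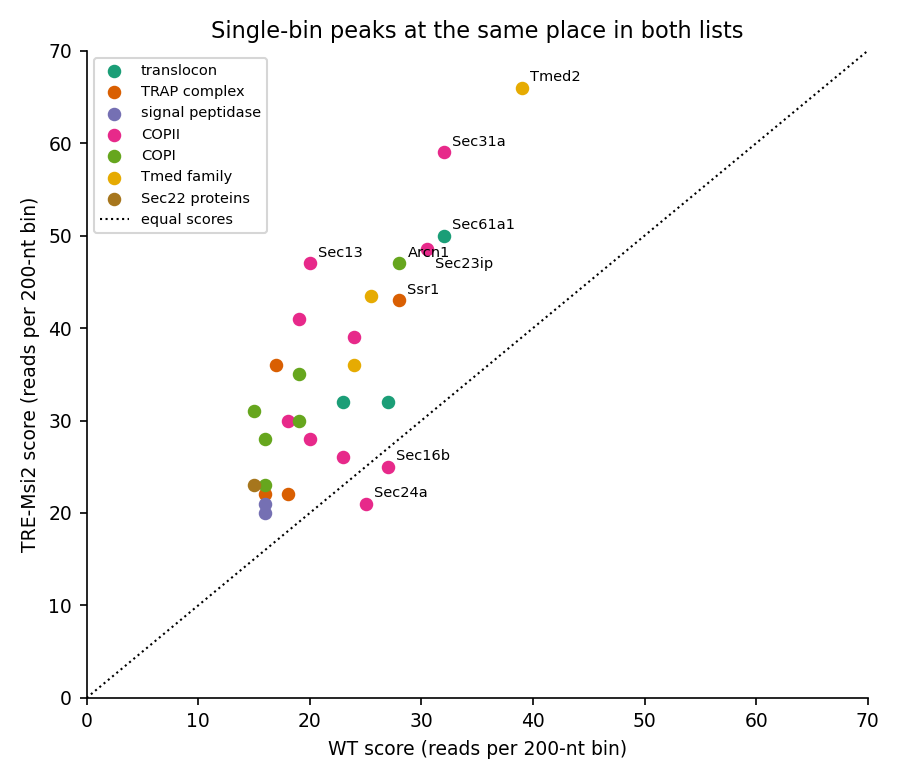
Each of the 29 points is a 200-nt bin called alone at the same place in both lists, with its WT score on the horizontal and its TRE-Msi2 score on the vertical axis, both in reads per bin, coloured by protein class. The dotted line marks equal scores. Of the points, 27 lie above it, Tmed2 (39 and 66) is highest, and Sec16b and Sec24a lie below it. Bins with a WT score below 20 could only lie above it, as single bins of the TRE-Msi2 list start at 20.

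The 13 genes without a peak in either list were Sec61a2, Sec61g, Sec11c, Sec31b, Cope, Copg2, Copz2, Tmed1, Tmed3, Tmed6, Tmed8, Tmed11 and Sec22c. In the Sec61a, Sec11, Sec31, Copg and Copz pairs, 1 paralog held a peak in at least 1 list and the other held none, whereas both Sec16 and both Sec23 paralogs and all 4 Sec24 paralogs held them. The genes without a peak had a median span of 17.1 kb (2.86 to 149 kb), and those with a peak 25.8 kb (1.84 to 101 kb). A gene without a peak may still have been bound below the lowest score that the lists hold.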

How the data were processed

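MSI2 CLIP-seq peaks of 2 WT and 2 TRE-Msi2 samples were used. The authors deposited 1 peak list per genotype, called with Piranha after duplicate removal and merging of samples, per the file names; each row joins a score and a p-value. The submitters' processing notes name cutadapt, TopHat, mm9 and mm10. Peaks on chromosome X reach 169976668, which fits mm10. Genes came from a RefSeq table of GRCm38.p6, which gives spans, and orientation from the RefSeq promoter table (42 of 50 genes; otherwise the majority strand of the peaks). A peak belonged to a gene if at least 1 base lay in its span. Lists were compared by overlap of 1 base on the same strand. Counts and shares carry exact Clopper-Pearson or Poisson 95% intervals. The overlap code was tested on simulated data (Python 3.11.15, pandas 2.3.3, numpy 2.4.6, scipy 1.17.1). Named genes were the 3 highest-scoring per class, those with 3 or more peaks in a list and those in 1 list; other members with a peak were added. Genes and lists were chosen with earlier results of these data known. No genome sequence was used here, so no peak sequence is shown.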

Additional observations from a re-analysis of the deposited data

How the results depend on the processing

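Each list pools its samples, so leaving out a replicate was not possible. No paired analysis was possible because the deposited lists carry no replicate numbers. Over 6 alternatives 25 to 32 genes held a WT peak, while the share of all protein-coding genes ran from 13.8% to 20.3%, and 30 to 37 held a TRE-Msi2 peak, with 16.6% to 24.5% (50% of the peak inside the span, peaks over 1 gene span, own strand, single bins, the upper 50% by score, and the 12061 highest-scoring TRE-Msi2 peaks, as many as in WT). The number with a TRE-Msi2 peak alone was 8 with single bins, instead of 5. The number with a WT peak alone, 0 at first, was 2 with single bins, 3 with the upper 50% by score and 1 (Sec24d) with the shortened list. Each of these settings removes TRE-Msi2 peaks. Single bins and the upper 50% also remove WT peaks, leaving 40 and 44 of the 61. The share of WT peaks overlapped fell to 72.5%, 77.3% and 83.6% in those 3 settings, where all protein-coding genes gave 58.8%, 74.1% and 73.1%. The share of TRE-Msi2 peaks overlapped was 43.3% with single bins, against 42.5% over all genes. Shares at gene ends stayed within the main 95% interval in all alternatives run. Counts in the wider secretory list stayed within a ratio of 1.5 to the main count, in either direction. With single bins they fell from 42 to 28 of 65 in WT, which is at that limit, and from 48 to 34 in TRE-Msi2. All protein-coding genes gave 16.2% and 19.9% in that setting. Unknown depth and pooled lists limit every comparison of scores.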
